A study of Mus musculus with 44 samples.

Results

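The 41 genes described here carry out protein folding in the endoplasmic reticulum (ER) or belong to the unfolded protein response (UPR), out of 31484 genes with a name in the gastric corpus data. They were chosen by name for their known role. They comprise 4 stress sensors, 5 transcription factors, 9 chaperones and co-chaperones, 4 disulfide isomerases, 2 secreted stress proteins, 8 genes of ER-associated degradation, 5 genes of the translocation channel and vesicle coat, and 4 genes of the ATF4 and PERK output. All 41 were found in the data, and all 41 passed the filter on low counts. Each gene was measured as the sum of its transcripts, and Xbp1 was also measured transcript by transcript.

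Secreted and membrane proteins fold in the ER with the help of chaperones and enzymes that form disulfide bonds. When unfolded protein builds up, the sensors IRE1, PERK and ATF6 signal to the nucleus. IRE1 removes a short intron from Xbp1 mRNA so that the active transcription factor is made, PERK slows translation while favouring ATF4, and ATF6 is cut to release a transcription factor. Zymogen-secreting chief cells and antibody-secreting plasma cells are known for an abundant ER, and XBP1 is needed for chief cells to mature.

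Samples were biopsies of the gastric corpus mucosa of female mice of BalbC background, 13 months old at termination. WT mice were compared with mice lacking the H+/K+ATPase beta subunit in every cell (KO), in which exon 1 of Atp4b was targeted with a PGK-neo cassette. Mice of both genotypes received subcutaneous injections of netazepide (NTZ, named YF in the labels), an antagonist of the gastrin/CCKB receptor, or of its vehicle polyethylene glycol (PEG). WT mice gave 11 PEG and 9 NTZ libraries and KO mice 13 PEG and 11 NTZ libraries, called WT/PEG, WT/NTZ and so on, and all KO mice carried the same targeted allele, so that no second line was measured. The labels name animals by number, and nothing beyond the number shows whether libraries came from separate mice, so that p-values measure the spread between libraries. WT_172_1 and WT_172_2 share a number within WT/PEG, and KO_110 occurs in both KO/PEG and KO/NTZ. With the WT_172 pair summed into 1 library, 17 members were higher and 10 lower in KO/PEG than in WT/PEG, because Hsp90b1 no longer passed (edgeR adjusted p = 0.071).

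Libraries held from 6065084 to 21945124 estimated counts. A library is named by genotype and animal number as in its label (KO_46). The targeted gene, Atp4b, had a median of 3858 CPM (counts normalised to library size with TMM factors in edgeR) in WT/PEG and 3698 CPM in WT/NTZ, against 5.72 CPM in KO/PEG and 7.63 CPM in KO/NTZ. Corpus markers were abundant in WT/PEG, where summed chief cell markers were between 115613 and 284386 CPM and summed parietal cell markers between 10302 and 16559 CPM. Library KO_46 of KO/PEG stood apart with 14.5% of its counts on mitochondrially encoded genes, against a KO/PEG median of 4.86% and a WT/PEG median of 9.57%. WT/PEG library WT_150 was the highest of its group for 28 of the 41 genes, KO/PEG library KO_111 was the highest of its group for 15, and KO/PEG library KO_46 was the lowest of its group for 18. Where leaving out 1 of these libraries changed a call under vehicle, or moved a called value by over 1.5 times, the value without it is given.

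Promoter sequence was examined first, because the ER stress response element (ERSE), bound by ATF6 and XBP1 with NF-Y, is the classical control element of these genes. The windows below are from RefSeq promoters on GRCm38.p6, which cover 250 bases before to 50 bases after the annotated start. An entry was found for 33 of the 41 genes; those without one were Hyou1, Sec61a1, Creb3l1, Atf6, Ssr2, Manf, Derl1 and Ern2. The ERSE was searched as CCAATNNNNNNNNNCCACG on both strands, and 39 of 32851 promoters (0.119%) held it. Among the 33 genes, 9 held it, namely Hspa5, Hsp90b1, Calr, Canx, Dnajc3, Pdia6, Creld2, Syvn1 and Derl3. Windows of 6 genes are shown in the order of the log2 fold change of KO/PEG over WT/PEG, from the highest to the lowest, because genes with the same element differed in direction. Each is written 5′ to 3′ on the strand of the gene, and capitals mark the element, which reads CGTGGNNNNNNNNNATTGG in reverse. Hsp90b1 holds 2 copies.
Pdia6 (chr12:17266471-17266529, + strand): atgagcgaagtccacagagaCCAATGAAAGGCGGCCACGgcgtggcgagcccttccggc
Calr (chr8:84847055-84847113, - strand): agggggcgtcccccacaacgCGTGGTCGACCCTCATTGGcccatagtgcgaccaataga
Hsp90b1 (chr10:86705513-86705676, - strand): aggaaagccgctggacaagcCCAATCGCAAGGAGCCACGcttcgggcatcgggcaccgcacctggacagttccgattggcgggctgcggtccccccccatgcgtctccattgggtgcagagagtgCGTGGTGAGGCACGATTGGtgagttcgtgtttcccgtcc
Hspa5 (chr2:34772005-34772063, + strand): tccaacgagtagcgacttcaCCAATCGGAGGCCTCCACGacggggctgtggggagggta
Dnajc3 (chr14:118937807-118937865, + strand): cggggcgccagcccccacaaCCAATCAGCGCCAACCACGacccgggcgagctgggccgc
Canx (chr11:50325780-50325838, - strand): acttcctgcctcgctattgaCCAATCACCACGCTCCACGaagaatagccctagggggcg

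In KO/PEG against WT/PEG, Pdia6, Calr and Hsp90b1 passed the test as higher and Canx and Dnajc3 as lower. Hspa5, Creld2, Syvn1 and Derl3 did not pass. A match to the letters is a description of the sequence and does not show that a factor binds there.

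The amino acid response element read by ATF4 with C/EBP factors was searched as TGATGNAA on both strands, and 1304 of 32851 promoters (3.97%) held it. Among the 33 genes it was found in Herpud1, Trib3, Asns and Chac1. They are shown because this set also split, with Trib3 higher and Asns and Herpud1 lower in KO/PEG than in WT/PEG. Capitals mark the element, which reads TTNCATCA in reverse.
Trib3 (chr2:152344030-152344055, - strand): agctcaggtTTACATCAgccgggcgg
Asns (chr6:7693210-7693252, - strand): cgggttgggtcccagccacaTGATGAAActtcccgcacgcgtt
Chac1 (chr2:119351029-119351076, + strand): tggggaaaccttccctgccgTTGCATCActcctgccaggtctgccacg
Herpud1 (chr8:94386297-94386344, + strand): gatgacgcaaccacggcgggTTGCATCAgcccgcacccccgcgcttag

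A second ERSE, searched as ATTGG and CCACG with 1 base between on both strands, was found in 12 promoters (0.0365%), among them those of Herpud1 and Dnajb11. In Herpud1 it lies downstream of the element above.
Herpud1 (chr8:94386357-94386407, + strand): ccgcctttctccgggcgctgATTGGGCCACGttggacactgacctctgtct

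The XBP1-binding UPRE, searched as TGACGTGG, was found in 222 promoters (0.676%) and in 0 of the 33 genes, which says only that these letters are not in these windows. No motif overlapped another in the windows shown.

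The first comparison addressed how the absence of the H+/K+ATPase beta subunit goes with ER gene expression under vehicle. In KO/PEG mice members of the set moved in both directions. The disulfide isomerases, the membrane-bound factors Creb3l1 and Creb3l4, the ATF4 branch factors Atf4 and Ddit3, and Manf were higher than in WT/PEG. The sensors Ern1, Eif2ak3 and Atf6, the co-chaperone Dnajb9 and the degradation adaptor Sel1l were lower, and the master chaperone Hspa5 did not pass the test. Of the 41 genes 18 were higher, 10 were lower and 13 did not pass (edgeR quasi-likelihood test over 14901 genes, Benjamini-Hochberg adjusted p under 0.05). This is 68.3% of the set, against 74.7% of all genes tested. The 43.9% that were higher stand beside 37.5% of all genes, and the 24.4% that were lower beside 37.2%. The median log2 fold change was 0.29 over the set and -0.0029 over all genes. Levels of the 2 groups did not overlap for 4 of the 41 genes, all lower in KO/PEG (Eif2ak3, Atf6, Dnajb9 and Sel1l), against 14.3% of all genes. Without KO/PEG library KO_46 there were 5 below, with Ern1, and 2 above, Pdia6 and Edem2, against 24.8% of all genes. In biopsies, fewer cells of a type and less RNA per cell cannot be told apart.

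**Figure D1:**
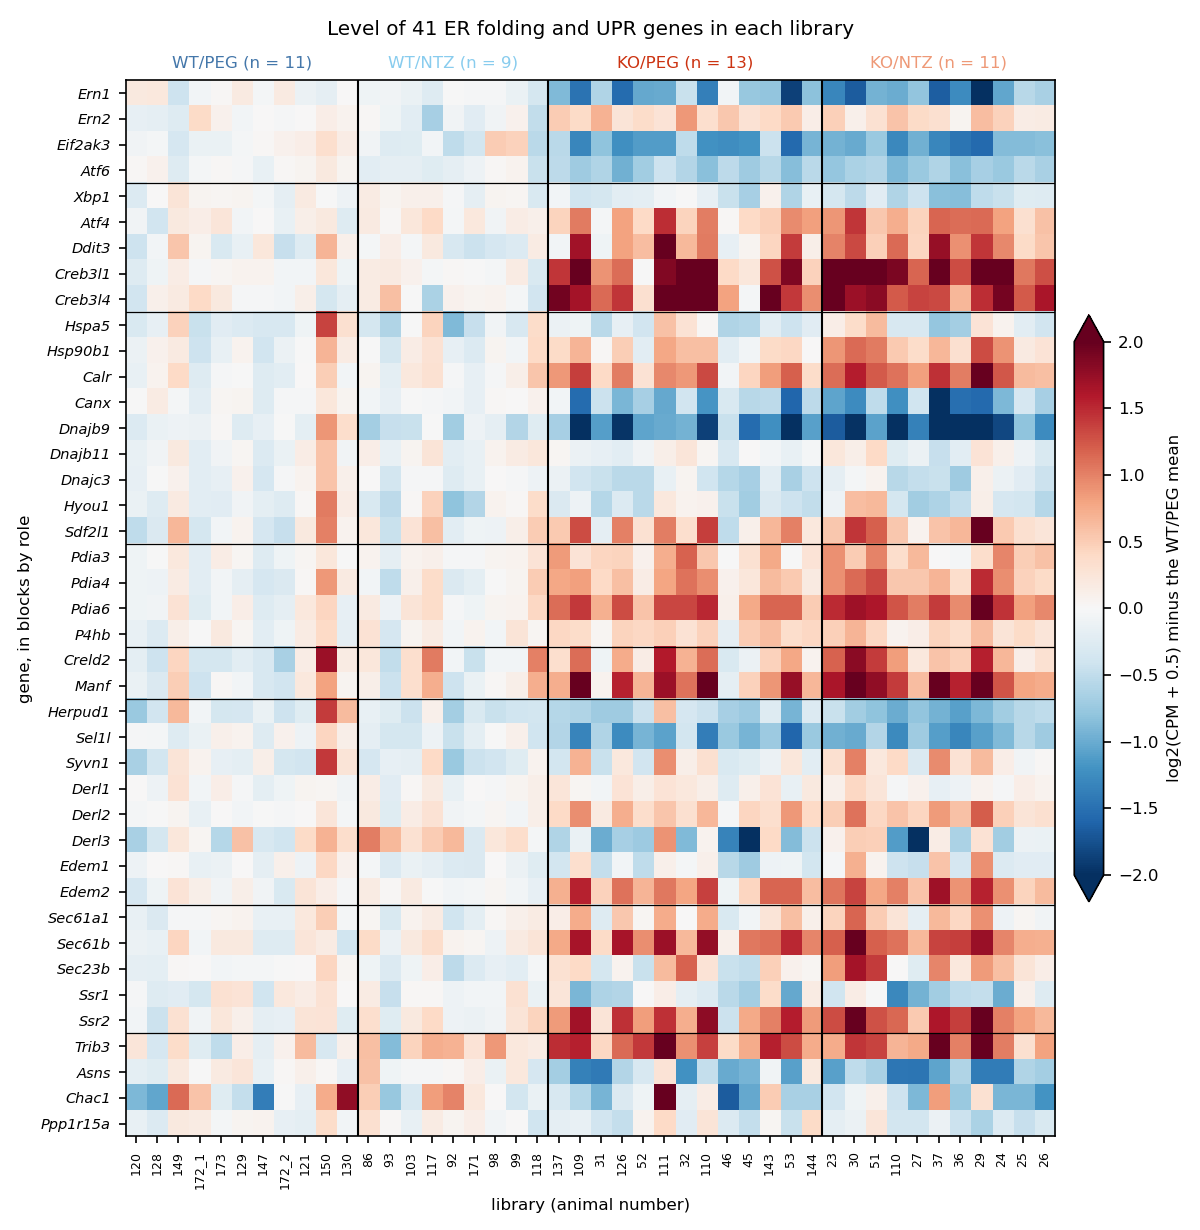
Each column is 1 library and each row 1 of the 41 genes in blocks by role, and colour gives log2(CPM + 0.5) minus the WT/PEG mean. The KO libraries on the right are blue for Ern1, Eif2ak3, Atf6, Dnajb9 and Sel1l and red for Creb3l1, Creb3l4, Pdia6 and Edem2, and WT/PEG library WT_150 is red in most rows.

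Of the 4 sensors, 3 were lower and 1 was higher in KO/PEG. Ern1 encodes IRE1 alpha, the kinase and endoribonuclease that cuts Xbp1 mRNA (chr11:106394650-106487852, - strand). It was at 19.6 to 30.6 CPM (median 26.5) in WT/PEG and 6.85 to 25.2 CPM (median 13.95) in KO/PEG. The groups overlapped only through KO/PEG library KO_46, the highest of its group, and the next KO/PEG library was at 19.2 CPM. On the log2 scale KO/PEG differed from WT/PEG by -0.93 ± 0.16 (SE, edgeR adjusted p = 2.17e-06).

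Eif2ak3 encodes PERK, which phosphorylates the initiation factor eIF2 alpha (chr6:70844515-70905245, + strand). It was at 49.999 to 80.5 CPM (median 61.9) in WT/PEG and 21.2 to 47.03 CPM (median 28.8) in KO/PEG. Every KO/PEG library was below every WT/PEG library, and the log2 fold change was -0.99 ± 0.13 (edgeR adjusted p = 5.52e-09). Atf6, the membrane-bound transcription factor of the third branch, was at 49.9 to 68.3 CPM (median 60.5) in WT/PEG and 30.3 to 44.5 CPM (median 39.01) in KO/PEG. These groups did not overlap either, with a log2 fold change of -0.66 ± 0.06 (edgeR adjusted p = 1.95e-12). After the trend with transcript length described below was removed, the Atf6 difference was 0.05 and no longer passed (adjusted p = 0.57).

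Ern2 moved the other way. It encodes IRE1 beta, the form of IRE1 found in mucus-secreting epithelium. Its level was 55.1 to 86.1 CPM (median 66.1) in WT/PEG and 72.4 to 120.5 CPM (median 86.1) in KO/PEG. The groups overlapped, and the log2 fold change was 0.44 ± 0.08 (edgeR adjusted p = 1.68e-05). The 7 markers of mucous neck cells and spasmolytic polypeptide-expressing metaplasia (SPEM), Muc6 and Tff2 among them, summed to a median of 2157 CPM in WT/PEG and 32016 CPM in KO/PEG. All 7 were higher in KO/PEG, and their part in the Ern2 difference was not tested.

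Among the transcription factors, 4 were higher and Xbp1 was lower. Creb3l1, also called OASIS, is a membrane-bound factor of secretory cells that is cut like ATF6 (chr2:91982328-92024502, - strand). It was at 58.7 to 81.97 CPM (median 68.8) in WT/PEG and 69.5 to 329 CPM (median 171.03) in KO/PEG. Library KO_52 alone lay inside the WT/PEG range, and every other KO/PEG library was above it. The log2 fold change was 1.40 ± 0.21 (edgeR adjusted p = 1.81e-07), or 2.64-fold. Creb3l4, a related factor (chr3:90237500-90243512, - strand), was at 15.6 to 26.9 CPM (median 20.1) in WT/PEG and 19.7 to 102 CPM (median 55.6) in KO/PEG. It overlapped WT/PEG at its lower end, and its log2 fold change was 1.57 ± 0.20 (edgeR adjusted p = 5.27e-09).

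Atf4 encodes the factor whose translation PERK favours, and Ddit3 encodes CHOP, a factor it induces. Atf4 mRNA was at 99.4 to 152 CPM (median 130.1) in WT/PEG and 125 to 359.7 CPM (median 179) in KO/PEG, a log2 fold change of 0.68 ± 0.13 (edgeR adjusted p = 1.32e-05). Ddit3 was at 6.81 to 15.6 CPM (median 9.18) in WT/PEG and 8.51 to 42.5 CPM (median 14.9) in KO/PEG, a log2 fold change of 0.81 ± 0.22 (edgeR adjusted p = 9.37e-04). Both groups overlapped for both genes, and library KO_111 was the highest KO/PEG library for each. Ddit3 has short transcripts (881 nt on average), and with the length trend removed its difference was 0.12 (adjusted p = 0.59).

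Xbp1 mRNA was at 313 to 453 CPM (median 379.7) in WT/PEG and 238 to 400.1 CPM (median 330.1) in KO/PEG. The ranges overlapped over most of their length. KO/PEG differed on the log2 scale by -0.24 ± 0.08 (edgeR adjusted p = 0.0085), the smallest difference among the members that passed as lower. Bhlha15, which encodes the chief cell factor MIST1 and lies downstream of XBP1, had a median of 80.6 CPM in WT/PEG and 23.3 CPM in KO/PEG. Chief cell markers as a list were 1 higher and 6 lower of 7 tested, and their sum had a median of 218917 CPM in WT/PEG and 12538 CPM in KO/PEG. Their part in the Xbp1 difference was not tested.

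The chaperones divided evenly, with 3 higher, 3 lower and 3 that did not pass. Hspa5 encodes BiP, the ER HSP70 chaperone that holds the sensors inactive. It was at 555 to 1926 CPM (median 649.6) in WT/PEG and 409 to 1035 CPM (median 606) in WT/NTZ, and at 497 to 1134 CPM (median 656) and 443 to 1170 CPM (median 658) in the KO groups given PEG and NTZ. The 4 medians lay close together, and library WT_150 was far above the other WT/PEG libraries, of which the next was at 1046 CPM. The log2 fold change of KO/PEG over WT/PEG was -0.25 ± 0.18 (edgeR adjusted p = 0.21), and -0.031 without library WT_150 (edgeR adjusted p = 0.87).

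Calr encodes calreticulin, a lectin chaperone of the ER lumen, and Hsp90b1 encodes GRP94. Calr was at 582 to 978 CPM (median 686) in WT/PEG and 676 to 1827 CPM (median 1271) in KO/PEG, with overlap at the lower end of KO/PEG and a log2 fold change of 0.80 ± 0.15 (edgeR adjusted p = 1.44e-05). Hsp90b1 was at 448 to 959 CPM (median 594) in WT/PEG and 515 to 1020 CPM (median 779.9) in KO/PEG. The groups overlapped widely, and its log2 fold change of 0.30 ± 0.13 passed narrowly (edgeR adjusted p = 0.041). It did not pass when any 1 of 12 libraries was left out (WT/PEG WT_120, WT_121, WT_147, WT_172_1, WT_172_2 or WT_173, KO/PEG KO_32, KO_53, KO_109, KO_110, KO_111 or KO_126), with adjusted p between 0.053 and 0.080. Sdf2l1, a component of an ER chaperone complex, was at 26.97 to 77.8 CPM (median 36.9) and 27.001 to 101 CPM (median 55.4) in the same groups, with a log2 fold change of 0.58 ± 0.21 (edgeR adjusted p = 0.014). With the length trend removed the Sdf2l1 difference was 0.05 and did not pass.

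Canx encodes calnexin, the membrane-bound partner of calreticulin, and it moved in the opposite direction. It was at 287 to 402 CPM (median 343) in WT/PEG and 114 to 332 CPM (median 233) in KO/PEG. Only the highest KO/PEG library, KO_137, reached the WT/PEG range. On the log2 scale KO/PEG differed from WT/PEG by -0.68 ± 0.15 (edgeR adjusted p = 8.46e-05).

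Dnajb9 was the member with the largest decrease (chr12:44205559-44210326, - strand). It encodes ERdj4, a BiP co-chaperone that restrains IRE1 and is a known target of spliced XBP1. Its level was 44.2 to 98.8 CPM (median 49.4) in WT/PEG and 7.13 to 39.4 CPM (median 24.9) in KO/PEG. No KO/PEG library reached the WT/PEG range. The log2 fold change was -1.32 ± 0.23 (edgeR adjusted p = 2.97e-06), a level 0.400 times that of WT/PEG, and it was -1.32 with the length trend removed. Dnajc3, which encodes the PERK inhibitor p58IPK, was at 139 to 262 CPM (median 176) in WT/PEG and 111.4 to 182 CPM (median 132) in KO/PEG. The groups overlapped, and the log2 fold change was -0.39 ± 0.09 (edgeR adjusted p = 2.91e-04), which became 0.10 with the length trend removed. Dnajb11 (ERdj3) and Hyou1 (GRP170), both partners of BiP, did not pass, with log2 fold changes of -0.07 ± 0.09 and -0.32 ± 0.16. Without KO/PEG library KO_111 the Hyou1 difference was -0.36 and passed (edgeR adjusted p = 0.042), and without WT/PEG library WT_150 it was -0.16 (edgeR adjusted p = 0.34).

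All 4 disulfide isomerases, which form and rearrange disulfide bonds in folding proteins, were higher in KO/PEG. Pdia6 showed the largest difference (chr12:17266545-17284770, + strand), at 184 to 297 CPM (median 210.2) in WT/PEG and 237 to 628 CPM (median 494) in KO/PEG. Library KO_46 alone lay inside the WT/PEG range, and every other KO/PEG library was above it. KO/PEG differed on the log2 scale by 1.04 ± 0.14 (edgeR adjusted p = 1.11e-08), or 2.05-fold. Pdia4 was at 89.96 to 208 CPM (median 108) and 122 to 242 CPM (median 172.5) in WT/PEG and KO/PEG, a log2 fold change of 0.55 ± 0.14 (edgeR adjusted p = 6.73e-04). Pdia3, the partner of calreticulin and calnexin on glycoproteins, was at 442 to 616 CPM (median 525) and 524 to 1198 CPM (median 715), with a log2 fold change of 0.48 ± 0.12 (edgeR adjusted p = 3.08e-04). P4hb, the classical protein disulfide isomerase, was at 739 to 1172 CPM (median 887) and 787 to 1373 CPM (median 1192), with a log2 fold change of 0.36 ± 0.09 (edgeR adjusted p = 3.54e-04). This holds for the gene total, and its main transcript P4hb-201 did not pass (0.03 ± 0.09, edgeR adjusted p = 0.8), as given below. The ranges of Pdia3, Pdia4 and P4hb overlapped between the groups. With each library's slope on length as a covariate, described below, the Pdia4 and P4hb differences were -0.015 and -0.082.

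Manf, a secreted factor released under ER stress (chr9:106838312-106891979, - strand), was at 79.03 to 184 CPM (median 102) in WT/PEG and 93.2 to 442 CPM (median 195) in KO/PEG. The groups overlapped, and the KO/PEG median was above every WT/PEG library. On the log2 scale KO/PEG differed from WT/PEG by 1.15 ± 0.25 (edgeR adjusted p = 8.53e-05), and it was 0.47 (adjusted p = 0.049) with the length trend removed. Creld2, a stress-inducible ER protein that is also secreted, was at 25.8 to 133 CPM (median 34.9) in WT/PEG and 32.9 to 122 CPM (median 55.7) in KO/PEG. Its log2 fold change of 0.44 ± 0.25 did not pass (edgeR adjusted p = 0.1). Library WT_150 set the upper end of WT/PEG, and without it the Creld2 difference was 0.76 and passed (edgeR adjusted p = 0.0025).

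**Figure D2:**
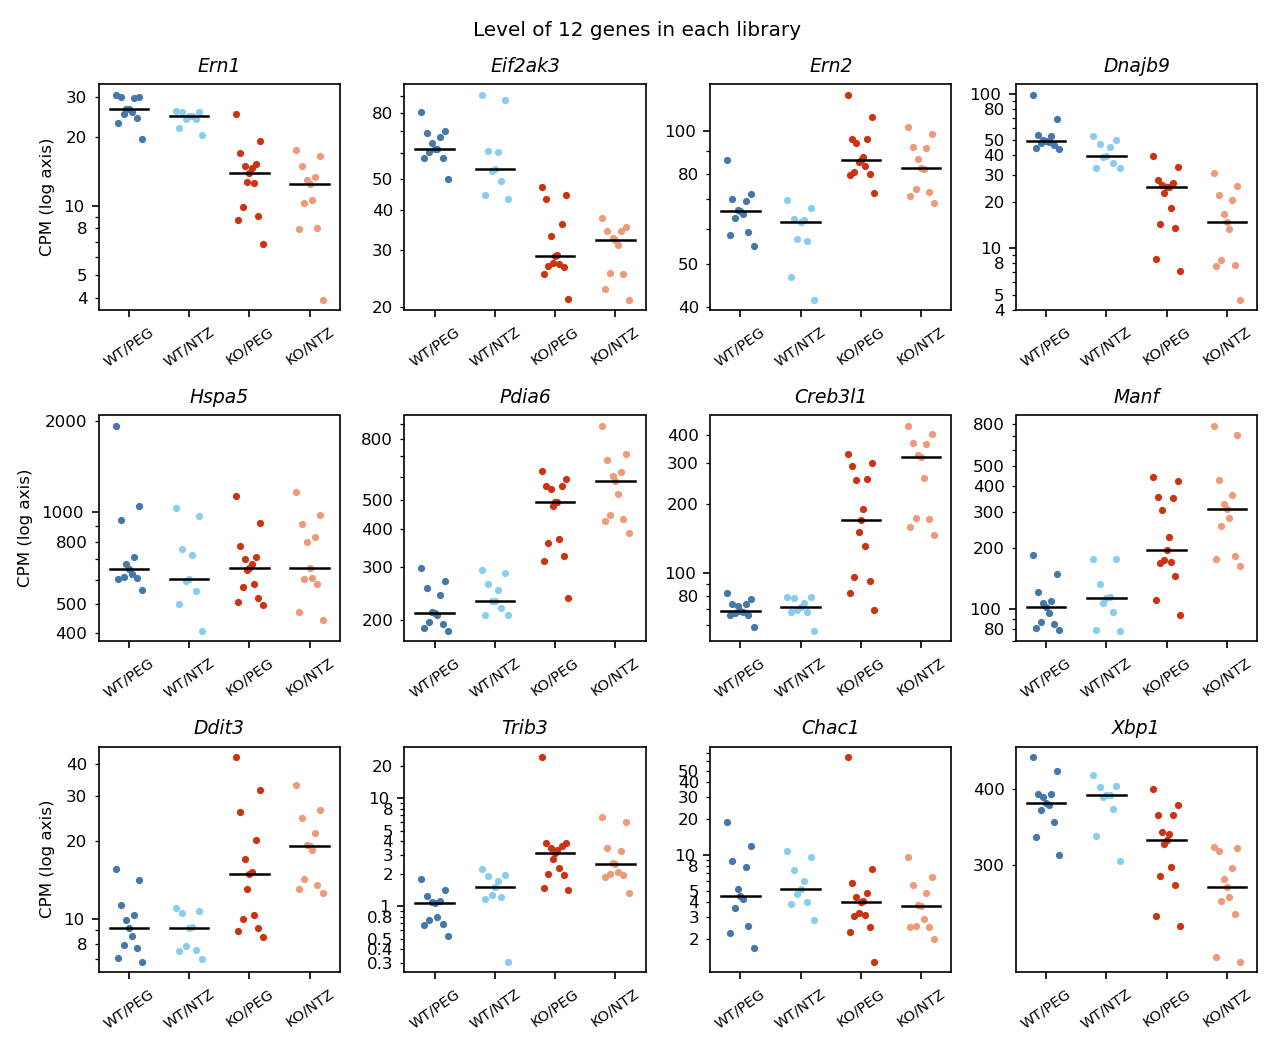
Each point is the CPM of 1 library on a log axis for 12 of the genes, and lines are group medians. KO libraries are lower for Eif2ak3 and Dnajb9 and higher for Creb3l1 and Pdia6, Hspa5 medians are close in the 4 groups, and KO/PEG library KO_111 stands above the rest for Trib3 (24.1 CPM) and Chac1 (65.5 CPM).

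ER-associated degradation sends misfolded proteins to the cytosol through the HRD1 complex. Of its 8 members 2 were higher, 2 were lower and 4 did not pass. Sel1l, the adaptor of the complex, was at 136 to 219.7 CPM (median 160.3) in WT/PEG and 53.9 to 126.4 CPM (median 85.03) in KO/PEG. Every KO/PEG library was below every WT/PEG library, with a log2 fold change of -0.92 ± 0.11 (edgeR adjusted p = 1.66e-09). On a scale of level per length without TMM factors, the Sel1l groups overlapped, as given below. Herpud1, which recruits substrates to it, was at 113 to 501 CPM (median 159) in WT/PEG and 98.9 to 286 CPM (median 127) in KO/PEG, a log2 fold change of -0.56 ± 0.17 (edgeR adjusted p = 0.0035). Library WT_150 was the highest WT/PEG library for Herpud1, and the next was at 295 CPM. Without WT_150 the Herpud1 difference was -0.33, and it still passed (edgeR adjusted p = 0.036).

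Edem2, which trims mannose from glycoproteins bound for degradation (chr2:155701677-155729475, - strand), was at 77.6 to 118.2 CPM (median 95.6) in WT/PEG and 92.1 to 285 CPM (median 169.7) in KO/PEG. Apart from library KO_46 all KO/PEG libraries were above WT/PEG, and the log2 fold change was 0.90 ± 0.14 (edgeR adjusted p = 2.48e-07). Derl2, a Derlin of the ER membrane, was at 34.6 to 45.2 CPM (median 37.8) and 37.7 to 72.8 CPM (median 50.5) in the same groups, with a log2 fold change of 0.50 ± 0.10 (edgeR adjusted p = 1.87e-05). Syvn1 encodes HRD1, the ubiquitin ligase of the complex, and did not pass (-0.02 ± 0.18), nor did Derl1 (0.11 ± 0.07), Edem1 (-0.19 ± 0.13) and Derl3 (-0.49 ± 0.27). Derl1 passed without WT/PEG library WT_149 (0.15, edgeR adjusted p = 0.033) and without KO/PEG library KO_46 (0.14, edgeR adjusted p = 0.042). Derl3 passed without KO/PEG library KO_111 (-0.67, edgeR adjusted p = 0.017) and without library KO_143 (-0.59, edgeR adjusted p = 0.045).

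Of the 5 genes for entry into the ER and exit from it, Sec61b and Ssr2 were higher. Sec61b encodes a subunit of the translocation channel (chr4:47474658-47483242, + strand) and was at 45.6 to 81.3 CPM (median 57.9) in WT/PEG and 64.7 to 203 CPM (median 125) in KO/PEG. KO/PEG overlapped WT/PEG only at its lower end, with a log2 fold change of 1.16 ± 0.16 (edgeR adjusted p = 5.17e-08). It has the shortest transcripts of the set, 560 nt on average, and with the length trend removed its difference was 0.18 and did not pass (adjusted p = 0.13). Ssr2, a subunit of the translocon-associated complex, was at 76.1 to 127 CPM (median 98.9) and 76.4 to 357 CPM (median 186), with a log2 fold change of 1.08 ± 0.19 (edgeR adjusted p = 2.22e-06). Ssr1, another subunit of the same complex and the gene with the longest transcripts (9333 nt), did not pass at -0.26 ± 0.15, and with the length trend removed it passed as higher (0.61, adjusted p = 0.0014). Sec61a1, the pore subunit, missed the threshold (0.29 ± 0.14, edgeR adjusted p = 0.054), as did Sec23b, a COPII coat protein (0.21 ± 0.17, edgeR adjusted p = 0.27). Sec61a1 passed when any 1 of 11 libraries was left out (WT/PEG WT_121 or WT_150, KO/PEG KO_31, KO_32, KO_45, KO_46, KO_52 or KO_144, KO/NTZ KO_27, KO_29 or KO_30), with log2 fold changes between 0.29 and 0.35.

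The ATF4 and PERK output did not move as one. Trib3, a pseudokinase induced by CHOP (chr2:152337422-152344032, - strand), was at 0.535 to 1.79 CPM (median 1.07) in WT/PEG and 1.42 to 24.1 CPM (median 3.12) in KO/PEG. It is at low counts, and 3 counts correspond to between 0.137 and 0.495 CPM. Library KO_111 was far above the other KO/PEG libraries, of which the next was at 3.84 CPM. The log2 fold change was 2.07 ± 0.38 (edgeR adjusted p = 7.05e-06), and 1.45 with KO/PEG libraries KO_111 and KO_46 and WT/PEG library WT_150 left out. Asns, asparagine synthetase, moved the other way, at 124 to 172.97 CPM (median 148) in WT/PEG and 54.3 to 176 CPM (median 90.9) in KO/PEG, a log2 fold change of -0.57 ± 0.16 (edgeR adjusted p = 0.0014).

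Chac1, a glutathione-degrading enzyme, was at 1.67 to 18.9 CPM (median 4.54) in WT/PEG and 1.28 to 65.5 CPM (median 4.02) in KO/PEG. Library KO_111 was again apart, with the next KO/PEG library at 7.56 CPM. The log2 fold change of 0.36 ± 0.47 did not pass with library KO_111 and was -0.74 without it (edgeR adjusted p = 0.037), so that 1 library turned the direction. Ppp1r15a, which encodes GADD34 and reverses the phosphorylation of eIF2 alpha, did not pass at -0.10 ± 0.10. KO/PEG library KO_111 was the highest of its group for Atf4, Ddit3, Trib3, Asns, Chac1 and Ppp1r15a alike.

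On a scale that allows for transcript length (TPM, normalised for annotated length and for library size), the levels in WT/PEG spanned a wide range. P4hb (median 474 TPM, 379 to 560.2) and Calr (461 TPM, 364 to 597) led, and their ranges overlapped. Hspa5 (316 TPM), Pdia3 (269 TPM), Hsp90b1 (255 TPM) and Xbp1 (208 TPM) followed. Xbp1 was thus above every other transcription factor of the set, of which the next was Atf4 at 84.96 TPM. The sensors were lower, with Ern2 at 25.6, Eif2ak3 at 16.9, Atf6 at 9.29 and Ern1 at 4.25 TPM. Chac1 (3.002 TPM) and Trib3 (0.659 TPM) were the lowest.

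The TPM scale also changed which groups overlapped. It differs from CPM both in the division by length and in using no TMM factors. Over all genes the log2 ratio of median TPM had a median of 0.21 for KO/PEG over WT/PEG and 0.10 for KO/NTZ over WT/NTZ. The median over the 41 genes was 0.37 and 0.49. Under vehicle 10 of the 41 were above WT/PEG without overlap (Atf4, Creb3l1, Calr, Pdia6, P4hb, Derl2, Edem2, Sec61b, Ssr2 and Trib3) and 0 were below, against 18.6% of all genes in either direction. Eif2ak3, Atf6, Dnajb9 and Sel1l, whose CPM did not overlap, overlapped in TPM. Dnajb9 has 1 transcript, so division by its length was the same in every library, and its overlap came with the library scaling. Sel1l was at a median of 42.8 TPM in WT/PEG and 39.4 TPM in KO/PEG, and at 38.0 TPM in WT/NTZ and 49.6 TPM in KO/NTZ, so that under NTZ its direction was the opposite of that in CPM. It was the only member passing the CPM test in either comparison whose median TPM turned. Under NTZ 9 members were above (Atf4, Ddit3, Creb3l1, Creb3l4, Pdia6, P4hb, Edem2, Sec61b and Ssr2) and 3 below (Eif2ak3, Canx and Asns), against 19.6% of all genes. The main P4hb transcript, P4hb-201, did not pass the test on counts in either comparison (log2 fold changes of 0.03 under vehicle and -0.18 under NTZ). The short P4hb-202, described below, weighs more in TPM than in counts.

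The comparison of genotypes was repeated under NTZ, between the NTZ groups of the same fit. That fit shares its filter, normalisation and estimate of spread over all 44 libraries. The number KO_110 also occurs in both KO groups, so the comparisons are not fully separate. In KO/NTZ against WT/NTZ, 22 of the 41 genes were higher, 11 were lower and 8 did not pass, or 80.5% of the set against 72.4% of all genes. By direction 53.7% were higher against 35.6% of all genes, and 26.8% were lower against 36.8%. The median log2 fold change was 0.45 over the set and -0.031 over all genes. Creb3l1 was at 56.5 to 79.4 CPM (median 71.4) in WT/NTZ and 146 to 437 CPM (median 319) in KO/NTZ, with no overlap and a log2 fold change of 1.99 ± 0.24 (edgeR adjusted p = 2.39e-09). Dnajb9 was at 32.9 to 53.1 CPM (median 39.3) and 4.64 to 30.5 CPM (median 14.9), again with no overlap, and its log2 fold change was -1.40 ± 0.25 (edgeR adjusted p = 6.81e-06). In all, 8 of the 41 genes were above and 7 below without overlap, against 26.8% of all genes in either direction. Those above were Ddit3, Creb3l1, Creb3l4, Calr, Pdia6, Edem2, Sec61b and Ssr2, and those below were Ern1, Eif2ak3, Atf6, Canx, Dnajb9, Sel1l and Asns.

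**Figure D3:**
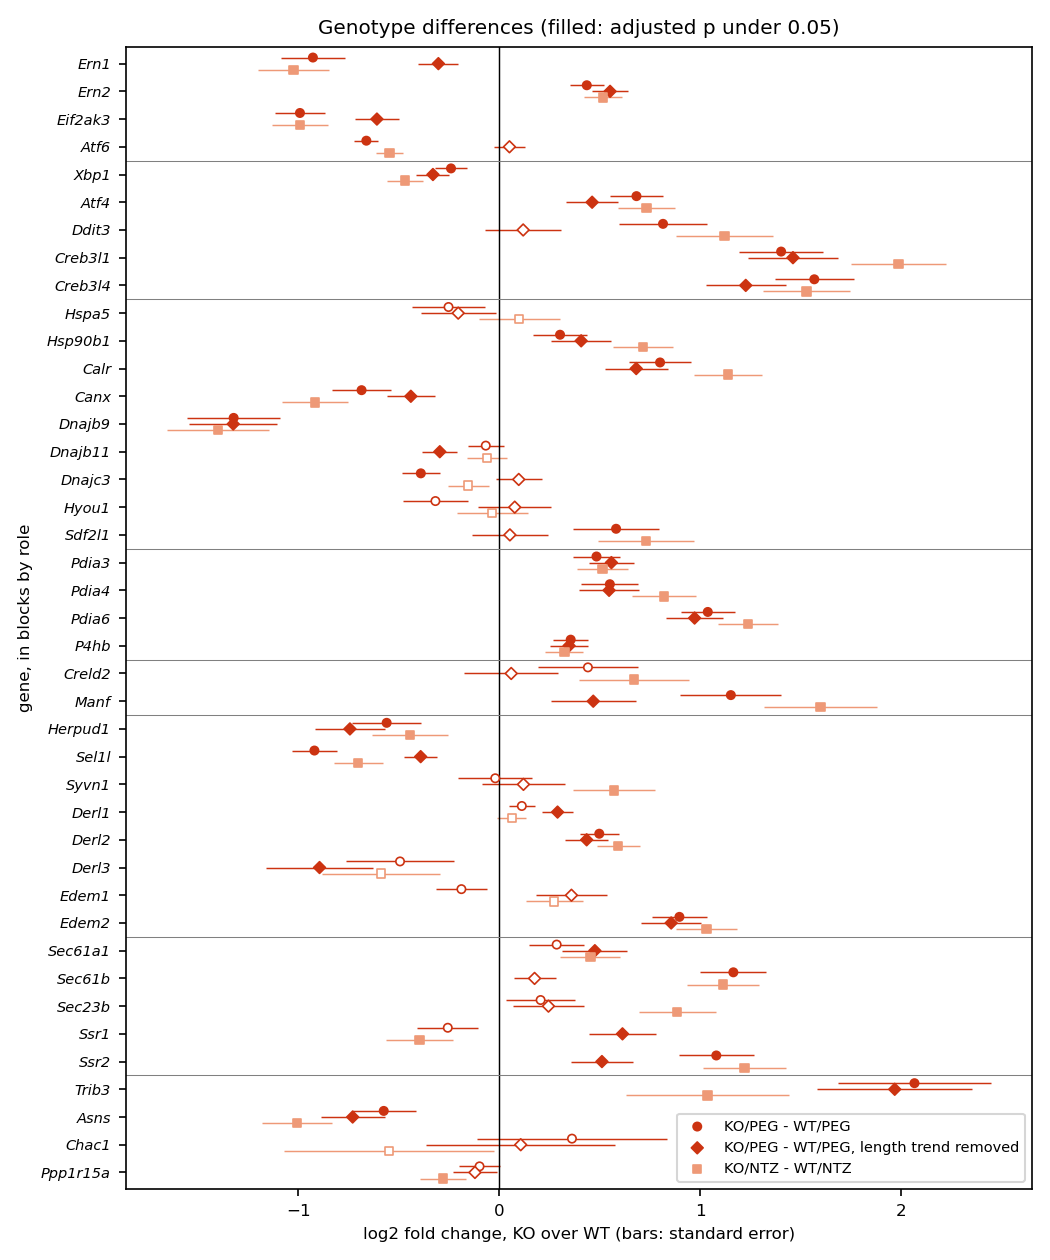
Points are log2 fold changes of KO over WT for each gene under PEG and under NTZ. Bars are standard errors, and filled points passed the test. Diamonds are the PEG values with the trend with transcript length, described below, removed. In the other points the 4 disulfide isomerases lie to the right of 0 under PEG and under NTZ. Ern1, Eif2ak3, Atf6, Canx, Dnajb9, Herpud1, Sel1l, Xbp1 and Asns lie to the left in those points.

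Under NTZ, Creld2 (0.67), Syvn1 (0.57), Sec61a1 (0.45) and Sec23b (0.89) also passed as higher and Ssr1 (-0.40) and Ppp1r15a (-0.28) as lower, while Dnajc3 (-0.15) did not pass. Single libraries decided several of these calls. Creld2 did not pass without WT/NTZ WT_93 or WT_171 or KO/NTZ KO_29 or KO_30, with log2 fold changes down to 0.55. Ssr1 did not pass without WT/NTZ WT_86 or WT_99 or KO/NTZ KO_24, KO_27 or KO_110, nor Ppp1r15a without WT/NTZ WT_86, WT_117 or WT_171 or KO/NTZ KO_29, nor Herpud1 without WT/NTZ WT_86 or WT_117 or KO/NTZ KO_36. Trib3 was at 0.85 without KO/NTZ KO_37 (edgeR adjusted p = 0.055). Derl3, at -0.59, passed as lower without KO/NTZ KO_30 or KO_51, WT/NTZ WT_171 or KO/PEG KO_45, and Edem1, at 0.27, as higher without KO/NTZ KO_27, KO_36 or KO_110. Whether the genotype difference itself depended on NTZ was tested by the difference between the NTZ effects, and 0 of the 41 genes passed that test, against 0.96% of all genes. Its values lay between -1.03 for Trib3 and 0.68 for Sec23b on the log2 scale, and without KO/PEG library KO_111 the value of Trib3 was -0.39. At an unadjusted p under 0.05 there were 4 genes, Hsp90b1, Syvn1, Edem1 and Sec23b, all with positive values, against 11.6% of all genes, and DESeq2 found 0.

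NTZ itself was compared with vehicle in each genotype. In KO mice 0 of the 41 genes passed (edgeR), against 5.56% of all genes, and in WT mice 0 passed against 1.03%. In KO mice 11 genes had an unadjusted p under 0.05, of which 7 were higher (Creb3l1, Hsp90b1, Calr, Pdia6, Manf, Edem1 and Sec23b) and 4 were lower (Xbp1, Dnajb9, Asns and Chac1) with NTZ. Of all genes tested, 24.9% had such a p. DESeq2 found 3 higher (Creb3l1, Hsp90b1 and Sec23b) and 1 lower (Xbp1), and its share of all genes is not given here. Creb3l1 had a KO/PEG median of 171.03 CPM and a KO/NTZ median of 319 CPM, with overlapping ranges, and a log2 fold change of 0.61 ± 0.20 (edgeR adjusted p = 0.063). Xbp1 was at 208 to 322 CPM (median 276) in KO/NTZ, against a KO/PEG median of 330.1 CPM, a log2 fold change of -0.23 ± 0.08 (edgeR adjusted p = 0.084). Hsp90b1 (0.41 ± 0.13), Sec23b (0.51 ± 0.17) and Calr (0.43 ± 0.15) were as near to the threshold, with edgeR adjusted p of 0.061, 0.063 and 0.08.

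These 5 genes crossed the threshold when certain libraries were left out. Up to 4 genes were then higher and up to 1 was lower with NTZ in KO mice. Creb3l1 passed without any 1 of KO/PEG KO_32, KO_53, KO_109, KO_110 or KO_111 or KO/NTZ KO_25, KO_26 or KO_27, and Sec23b without KO/PEG KO_32, KO_109 or KO_111 or KO/NTZ KO_25, KO_26, KO_27 or KO_110. Hsp90b1 passed without KO/PEG KO_53, KO_109, KO_110 or KO_111 or KO/NTZ KO_25, KO_26 or KO_27, Calr without KO/PEG KO_53, KO_109 or KO_110 or KO/NTZ KO_25 or KO_26, and Xbp1 without KO/PEG KO_45, KO_53 or KO_109 or KO/NTZ KO_25. Across all 41 genes the log2 change with NTZ was between -1.002 (Chac1) and 0.61 (Creb3l1) in KO mice. The Chac1 value rests on KO/PEG library KO_111, without which it was 0.098 (edgeR adjusted p = 0.86), and Trib3 likewise went from -0.50 to 0.13. In WT mice it was between -0.45 (Herpud1) and 0.52 (Trib3), with Atf6 and Herpud1 lower at an unadjusted p under 0.05, against 7.82% of all genes, and 0 found by DESeq2. Without WT/PEG library WT_150 the Herpud1 value was -0.23.

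Transcript length moved with genotype over the whole transcriptome and touches the values above. Over 14901 genes the log2 fold change of KO/PEG over WT/PEG fell by 0.488 for each doubling of annotated transcript length (r = -0.431 across genes, which are not independent replicates). For KO/NTZ over WT/NTZ it fell by 0.402, while NTZ against vehicle gave -0.018 in KO and -0.104 in WT mice. The slope of log2 level on length in single libraries was between 0.12 and 0.35 in WT/PEG and between -0.37 and 0.17 in KO/PEG, and library KO_46 had the highest KO/PEG value. The 41 genes have a median length of 2380 nt. With that slope as a covariate, only 3 of the 41 genes were higher and 16 lower in KO/PEG, against 16.3% and 16.4% of all genes. In KO/NTZ 4 were higher and 7 lower, against 10.9% and 10.2%. Of the genes that had passed under vehicle, Ern1, Atf4, Ddit3, Hsp90b1, Calr, Canx, Sdf2l1, Pdia4, P4hb, Manf, Derl2, Edem2, Sec61b and Ssr2 then had the opposite sign. The slope separated the genotypes except in KO/PEG library KO_46, so length and genotype cannot be told apart in that fit.

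**Figure D4:**
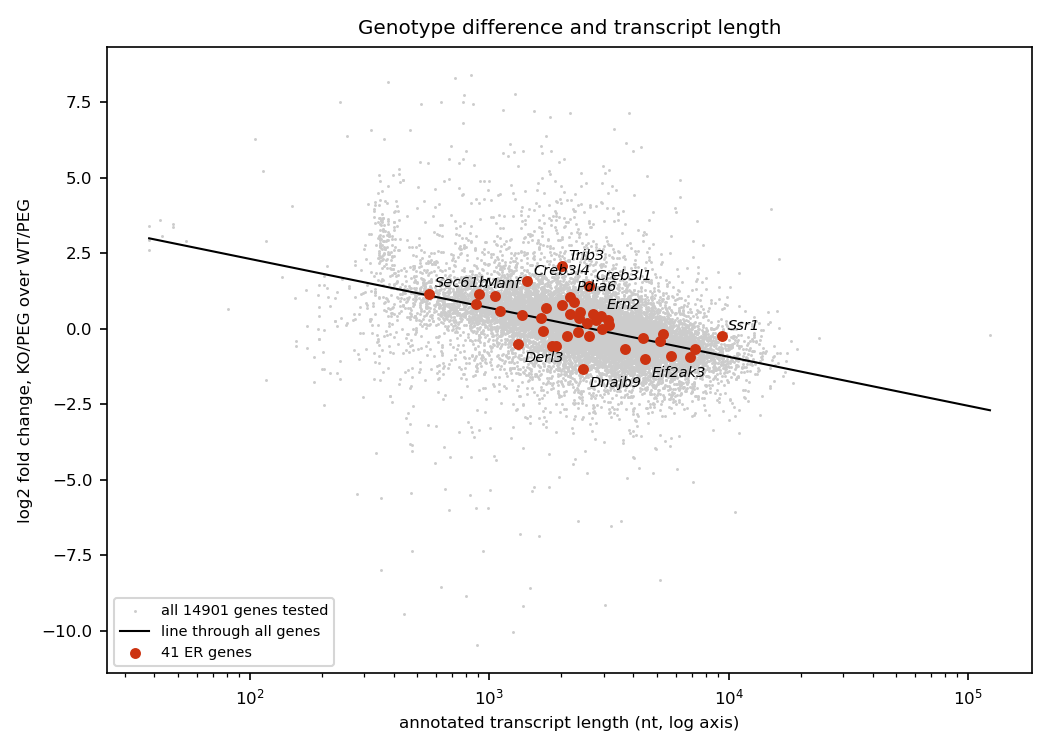
Grey points are the 14901 genes tested, red points the 41 ER genes, and the line is fitted through all genes, with transcript length on a log axis and the log2 fold change of KO/PEG over WT/PEG. The line falls with length, and Creb3l1, Creb3l4 and Trib3 lie well above it while Dnajb9 and Eif2ak3 lie below.

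When this trend was removed with an offset for each gene and library instead, 66.8% of all genes passed under vehicle and 67.5% under NTZ. Under vehicle 18 members were again higher and 10 lower, of which 15 and 8 were the same genes as before. Ddit3, Sdf2l1, Sec61b, Atf6 and Dnajc3 no longer passed. Derl1, Sec61a1 and Ssr1 now passed as higher, and Dnajb11 and Derl3 as lower. Under NTZ 20 of the 22 higher and 7 of the 11 lower genes passed in the same direction, and Ssr1 passed in the opposite one. The part of length in the differences was not tested beyond this.

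Transcripts of the same gene also moved apart between genotypes. The 41 genes have 166 transcripts in the data, of which 102 were tested, and 53.5% of the 30782 transcripts tested passed in KO/PEG against WT/PEG and 56.8% in KO/NTZ against WT/NTZ. For each gene with more than 1 transcript, the transcript with the highest median share in WT/PEG was compared with the gene total. Under vehicle it passed in the same direction as the total for 12 genes that were higher and 7 that were lower. P4hb, Derl2 and Herpud1 passed on the total and not on this transcript, and Syvn1, Dnajb11 and Sec23b on the transcript and not on the total. Under NTZ 14 higher and 8 lower genes kept their direction. P4hb and Herpud1 passed on the total only and Dnajb11 on the transcript only. Derl2 and Sec23b were higher on the total but lower on this transcript (log2 fold changes of -0.29 and -1.77, edgeR adjusted p = 0.024 and 0.019).

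P4hb-201 (2861 nt) held a median of 91.1% of P4hb counts in WT/PEG and 80.8% in KO/PEG, and its own log2 fold change was 0.03 ± 0.09 (edgeR adjusted p = 0.8). The short P4hb-202 (414 nt, annotated as a processed transcript) held 2.95% and 13.7%, with a log2 fold change of 2.97 ± 0.32 (edgeR adjusted p = 6.15e-10). P4hb-201 did not pass and P4hb-202 did. Sec23b showed the widest exchange. Sec23b-201 held 91.6% in WT/PEG, 36.3% in KO/PEG and 16.3% in KO/NTZ, while Sec23b-202, which starts 8670 bases inside the gene, held 6.32%, 61.9% and 82.6%. Their log2 fold changes under vehicle were -1.58 ± 0.59 and 3.26 ± 0.76 (edgeR adjusted p = 0.022 and 4.09e-04).

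Other transcripts were nearly absent from KO libraries. Pdia3-203 held 8.04% of Pdia3 counts in WT/PEG and 0% in KO/PEG, Herpud1-204 11.5% and 0%, and Hsp90b1-203 5.25% and 0%. All 3 passed as lower under vehicle. These transcripts end 4987, 2908 and 2192 bases short of the last annotated base of their gene. Among the transcripts of the 41 genes that were tested in genes with both kinds, those ending over 200 bases short were 6 higher and 22 lower of 48, with a median log2 change of -0.55. Those reaching the end were 14 higher and 11 lower of 40, with a median of 0.026. Over all genes with both kinds, short-ending transcripts were 1930 higher and 2961 lower of 9925, with a median of -0.42. Those reaching the end were 3956 higher and 3528 lower of 14359, with a median of -0.044. Of the counts of members with both kinds, a median of 35.2% in WT/PEG and 28.9% in KO/PEG was on short-ending transcripts, whereas over 12059 genes with both kinds it was 15.7% and 23.8%. The part of 3′ ends in the differences was not tested. Reads common to several transcripts were split between them by estimation, which makes shares less certain than totals.

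Xbp1 was followed transcript by transcript because its activity depends on splicing. The gene lies on the + strand of chromosome 11 (chr11:5520659-5525893, GRCm38), and 4 transcripts are annotated in GENCODE vM21. Xbp1-201 is the full coding form of 2129 nt in 5 exons. Xbp1-202 is a retained-intron form, and Xbp1-203 and Xbp1-204 are shorter coding forms. IRE1 cuts out 26 bases in exon 4 of Xbp1-201, at chr11:5524279-5524304, shown in capitals with 20 bases on each side (chr11:5524259-5524324, from the annotated transcript).
Xbp1-201: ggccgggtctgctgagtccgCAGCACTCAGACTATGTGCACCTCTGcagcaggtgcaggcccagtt

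Xbp1-201, Xbp1-203 and Xbp1-204 hold these bases whole, and Xbp1-202 does not reach them. None of the 4 lacks only the 26 bases, so spliced and unspliced mRNA were counted together and cannot be told apart in these data.

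Almost all Xbp1 counts were on Xbp1-201. Its share was 95.9% ± 1.57 (SD) in WT/PEG and 96.9% ± 1.10 in WT/NTZ, and 98.1% ± 2.15 and 98.7% ± 0.375 in the KO groups given PEG and NTZ. The share was higher in KO/PEG than in WT/PEG by 2.19 percentage points (two-sided permutation test with 100000 resamples, p = 0.011, adjusted p = 0.030 over 16 tests). In KO/NTZ it was higher than in WT/NTZ by 1.72 percentage points (exact permutation test, p = 5.95e-05, adjusted p = 0.00048). Library KO_46 was the exception, with the lowest Xbp1-201 share of all libraries (91.2%), and without it the KO/PEG mean was 98.7%.

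**Figure D5:**
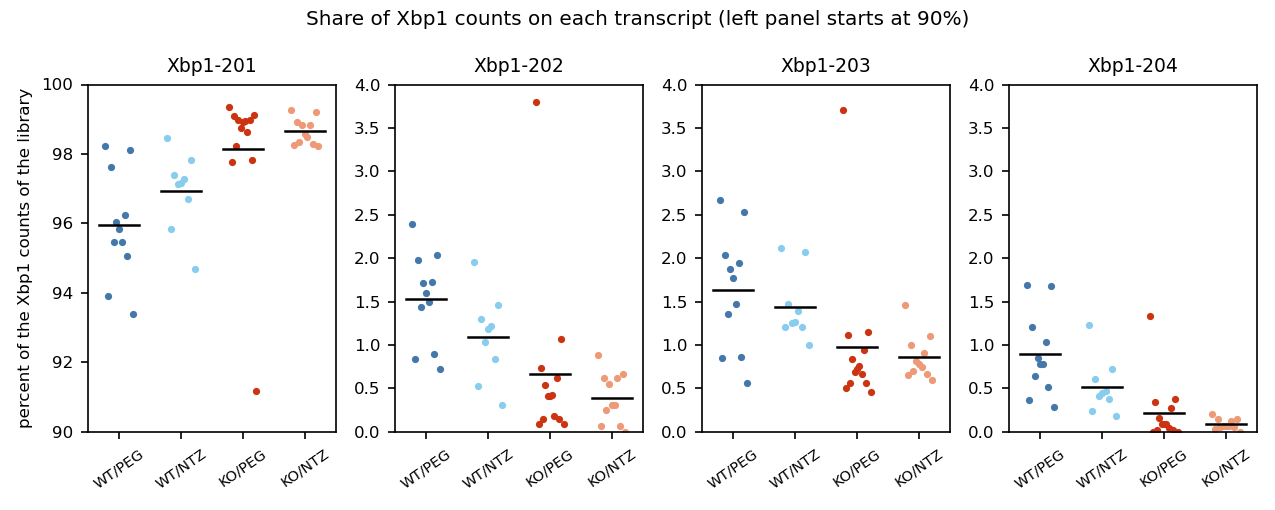
Points are the percent of a library's Xbp1 counts on each of the 4 transcripts, and lines are group means; the axis of Xbp1-201 starts at 90%. The minor transcripts are lower in both KO groups except in KO/PEG library KO_46, which has the highest share of Xbp1-202 (3.80%) and Xbp1-203 (3.70%).

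The minor transcripts made up the difference. Xbp1-204 held 0.896% ± 0.475 of the counts in WT/PEG and 0.219% ± 0.358 in KO/PEG (permutation test with 100000 resamples, adjusted p = 0.0042). Xbp1-202 held 1.53% ± 0.530 and 0.668% ± 0.984 (permutation test, adjusted p = 0.034), and Xbp1-203 held 1.63% ± 0.683 and 0.975% ± 0.848, which did not pass (permutation test, adjusted p = 0.097). Without library KO_46 the KO/PEG means were 0.126% for Xbp1-204, 0.407% for Xbp1-202 and 0.748% for Xbp1-203. All 3 were lower in KO/NTZ than in WT/NTZ, with adjusted p of 0.0042, 0.0030 and 0.00038 for Xbp1-202, Xbp1-203 and Xbp1-204 by the exact permutation test. NTZ against vehicle passed for none of the 4 in either genotype (8 tests, adjusted p from 0.097 to 0.92). By level, all 4 transcripts were lower in KO/PEG, by 0.26 for Xbp1-201, 1.49 for Xbp1-202, 1.03 for Xbp1-203 and 2.29 for Xbp1-204 on the log2 scale. Xbp1-204 was at low counts, with medians of 3.10 CPM in WT/PEG, 0.288 CPM in KO/PEG and 0.164 CPM in KO/NTZ. For comparison, 3 counts correspond to between 0.137 and 0.495 CPM. Xbp1-204 had 0 counts in 2 KO/PEG libraries and 1 KO/NTZ library. Xbp1-202 had a KO/NTZ median of 0.90 CPM and 0 counts in 1 KO/NTZ library. The 3 minor transcripts end before the last base of Xbp1-201, and the part of that in their lower share was not tested.

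A wider list held 105 further genes of ER folding and the UPR, grouped by role, and 101 of them were tested. In KO/PEG against WT/PEG, 46 were higher and 31 lower, with a median log2 fold change of 0.18. These are 45.5% and 30.7% of the list, against 37.5% and 37.2% of all genes. Other folding genes were 12 higher and 5 lower of 18, and N-glycosylation genes 9 higher and 2 lower of 13. The COPII coat, which buds vesicles from the ER, was 2 higher and 7 lower of 11. Further ATF4 and PERK targets were 9 higher and 7 lower of 27, degradation genes 6 and 4 of 14, translocation genes 5 and 4 of 12, and membrane-bound factors 3 and 2 of 6.

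The strongest increases by p were in Pdia5, Erp29, Ddost, Atf5, Sil1 and Sec11c. Pdia5, a disulfide isomerase, was at 11.1 to 16.4 CPM (median 14.2) in WT/PEG and 22.8 to 131 CPM (median 70.5) in KO/PEG, a log2 fold change of 2.44 ± 0.23 (edgeR adjusted p = 3.06e-12). Erp29 and Sil1, a folding factor and the nucleotide exchange factor of BiP, changed by 1.25 ± 0.15 and 1.29 ± 0.17. Ddost, a subunit of the oligosaccharyltransferase, changed by 0.71 ± 0.09, Atf5 by 0.86 ± 0.11 and the signal peptidase subunit Sec11c by 0.96 ± 0.12.

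The strongest decreases were in Ero1lb, Edem3, Sec23a, Sec24a, Serp1 and Vldlr. Ero1lb encodes the oxidase that recharges disulfide isomerases in secretory cells. It was at 49.7 to 92.3 CPM (median 70.2) in WT/PEG and 16.3 to 45.9 CPM (median 30.5) in KO/PEG, a log2 fold change of -1.26 ± 0.15 (edgeR adjusted p = 1.86e-09). Ero1l, the other ER oxidase, moved in the opposite direction under vehicle (0.55 ± 0.14, edgeR adjusted p = 6.55e-04), but did not pass in KO/NTZ against WT/NTZ (-0.09 ± 0.15, edgeR adjusted p = 0.61). Sec23a and Sec24a, coat proteins of COPII, changed by -0.85 ± 0.11 and -0.94 ± 0.13, and Edem3 by -1.25 ± 0.16. Serp1 changed by -0.85 ± 0.12 and Vldlr by -1.29 ± 0.19. With the length trend removed these 12 genes kept their direction, and all but Sec11c passed.

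With NTZ in KO mice, 2 of the 101 genes passed, or 1.98% of the list against 5.56% of all genes. Slc7a11, the cystine transporter induced by ATF4, was at 4.44 to 24.2 CPM (median 6.92) in KO/PEG and 2.49 to 6.01 CPM (median 4.71) in KO/NTZ. Its log2 fold change was -1.02 ± 0.22 (edgeR adjusted p = 0.0026). Library KO_46 was the highest KO/PEG library for Slc7a11, and the next was at 16.5 CPM. Ero1l was at 98.5 to 333 CPM (median 174) and 92.7 to 159 CPM (median 127), with a log2 fold change of -0.63 ± 0.14 (edgeR adjusted p = 0.0045). In WT mice and for the difference between the NTZ effects 0 of the 101 passed, against 1.03% and 0.96% of all genes.

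Markers of other cell types moved with genotype alongside these genes. Plasma cell markers, of which 8 of 9 tested were higher in KO/PEG, summed to between 243 and 689 CPM in WT/PEG and between 2064 and 9740 CPM in KO/PEG. Pit cell markers were 4 lower of 5, with medians of 105070 and 50420 CPM. Leukocyte markers were 4 higher of 7, endocrine markers 4 higher and 1 lower of 6, and smooth muscle markers 5 lower of 6. Pancreatic acinar markers, which would show pancreas in a biopsy, were 1 higher and 4 lower of 5 and summed to at most 193 CPM in WT/PEG, with Cpa1 at 0. Squamous epithelium markers, which would show forestomach, were 0 of 8 in either direction under vehicle and 5 lower of 8 in KO/NTZ against WT/NTZ, and they summed to a median of 2.39 CPM in WT/PEG and 860 CPM in WT/NTZ. Parietal cell markers were 6 lower of 8, with medians of 13326 and 4744 CPM. WT/NTZ library WT_118 had far more plasma cell and leukocyte signal than its group, 2699 CPM against a median of 386 CPM for plasma cells. The part of these cell types in the differences of the 41 genes was not tested.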

How the data were processed

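RNA from gastric corpus biopsies was sequenced as 44 stranded, polyA-selected libraries with single reads on a NextSeq 500. The authors obtained estimated counts per transcript with kallisto 0.42.4 on the GRCm38 transcriptome and deposited them in 1 table with a column per library, with no normalization; their own tests used sleuth. Kallisto shares reads among transcripts with common sequence, so gene sums are firmer than transcript values.

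Here 92372 of 94080 transcripts were paired with GENCODE vM21 gene names (the other 1708 held at most 1.3% of counts and were left out), summed to 31484 genes and rounded to whole numbers. Genes passing filterByExpr (minimum count 10, minimum total 15), 14901 in all, were fitted over all 44 libraries with edgeR 4.0.16 in R 4.3.3 (TMM factors, quasi-likelihood test, Benjamini-Hochberg adjustment, threshold 0.05), in place of sleuth, because gene sums were analysed. Levels are CPM. The same test was run on 30782 transcripts, and Xbp1 shares were compared by two-sided permutation tests. The fit was tested on simulated data first. With a simulated length trend by genotype, limits on changes recovered and on false calls were set only for the fit with offsets. A total of 6065084 to 21945124 counts per library puts 3 counts at between 0.137 and 0.495 CPM, and counting error only is covered by that floor.

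Samples were grouped by the genotype and treatment in their labels. The study's methods give fewer KO/PEG mice than the 13 libraries labelled so; all 13 were used. The 41 genes were named, with the pathway genes that had the 6 smallest p in each direction in KO/PEG against WT/PEG and those called with NTZ. The members and lists were chosen with earlier results of these data known. Alternatives were RLE factors, no filter, DESeq2 1.42.0, the groups compared alone, mitochondrial genes left out, subsets of libraries, each library left out in turn, transcript length as a covariate or as offsets, and TPM for the overlap of groups.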

Additional observations from a re-analysis of the deposited data

Results flagged for a closer look

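Creb3l1 in WT/NTZ library WT_118 was at 56.5 CPM, set apart from the other WT/NTZ libraries, of which the next lowest was at 67.9 CPM and the median was 71.4 CPM. The gap was 0.496 of the range of the 9 libraries, just above the 95% critical value of Dixon's test for that number. This was 1 of 45 groups of values tested, and about 1 in 20 would be marked by chance. All 45 were in WT/NTZ, because the other groups hold more libraries than the test was set up for. Libraries KO_111, KO_46 and WT_150, described above, were therefore not screened in this way. The same library had the most plasma cell and leukocyte marker signal of its group, and the part of this in the Creb3l1 value was not tested.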

How the results depend on the processing

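In KO/PEG against WT/PEG, between 17 and 20 members were higher and between 10 and 13 lower when any 1 library was left out, and RLE factors, no filter, DESeq2 and leaving out mitochondrial genes or the libraries numbered 110 gave counts within 1.5 times those reported. The exception was transcript length slope as a covariate, with 3 higher and 16 lower in KO/PEG, 4 higher and 7 lower in KO/NTZ against WT/NTZ, 4 higher with NTZ in KO mice, and 6 higher for the difference of the NTZ effects. Its log2 changes that turned sign in KO/PEG were Ern1 0.35, Atf4 -0.38, Ddit3 -0.88, Hsp90b1 -0.42, Calr -0.35, Canx 0.33, Sdf2l1 -1.12, Pdia4 -0.015, P4hb -0.082, Creld2 -1.14, Manf -1.001, Derl1 -0.088, Derl2 -0.29, Edem2 -0.21, Sec61a1 -0.78, Sec61b -0.36, Sec23b -0.26, Ssr2 -0.69 and Chac1 -2.199. In KO/NTZ against WT/NTZ only part of the 41 genes was followed in this way. Among those followed, the values that turned were Ern1 0.11, Atf4 -0.20, Ddit3 -0.30, Trib3 -0.64, Manf -0.27, Sec61a1 -0.48, Syvn1 -0.34 and Creld2 -0.68. Genes not followed there included Hsp90b1, Sdf2l1, Pdia4, P4hb, Derl2, Edem2, Sec61b and Ssr2, which turned under vehicle. With the length trend removed by offsets, the values that turned sign under vehicle were Atf6 0.051, Dnajc3 0.097, Hyou1 0.077, Syvn1 0.12, Edem1 0.36 and Ssr1 0.61. Among the genes followed under NTZ they were Atf6 0.12, Ssr1 0.40 and Dnajc3 0.32. With KO/PEG libraries KO_111 and KO_46 and WT/PEG library WT_150 left out, an alternative chosen after seeing the data like the offsets, Dnajb11 was at 0.011, Syvn1 at 0.14 and Chac1 at -0.59. With only animals numbered 100 or above, Syvn1 was at 0.19 and Ppp1r15a at 0.089 under vehicle. Such numbers were unevenly spread, with 11 of 11 libraries in WT/PEG, 7 of 13 in KO/PEG, 4 of 9 in WT/NTZ and 1 of 11 in KO/NTZ. Animal number and group are thus partly confounded, also for NTZ against vehicle. Leaving out 1 library, Chac1 ranged from -0.74 to 0.66, Dnajb11 from -0.095 to 0.012 and Syvn1 from -0.12 to 0.22 under vehicle. With NTZ in KO mice the 0 members called became 3 higher and 1 lower with DESeq2, 2 higher without the libraries numbered 110 and 1 higher with offsets, and between 0 and 4 higher and between 0 and 1 lower on leaving out 1 library. In TPM, also chosen after seeing the data, the 0 members above and 4 below without overlap under vehicle became 10 and 0, and the 8 and 7 under NTZ became 9 and 3; without KO/PEG library KO_46 the vehicle counts in CPM were 2 and 5. For the NTZ effect counts under DESeq2, the covariate, offsets or libraries left out, no share of all genes is given. For the Xbp1 transcripts, DESeq2 gave 1 lower with NTZ in KO mice. The cause of these changes was not tested. No paired analysis was possible because only 1 animal number is shared between groups.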
